A study of Mus musculus with 6 samples.

Results

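Cytosolic nucleic acid sensors and limiters were examined as a set of 10 genes, Ddx58, Ifih1, Dhx58, Mavs, Zbp1, Tmem173, Eif2ak2, Trex1, Samhd1 and Adar, in the microglial transcriptomes of lupus-prone and control mice. The genes were chosen by name, with earlier results of these data known. Each matched a single identifier among the 55401 genes with deposited counts, and all 10 passed the filter on low counts that left 19554 genes to test. In MRL/lpr mice a mutation (lpr) of the death receptor gene Fas leads to a lupus-like disease, and MRL/mpj mice are the matched control strain. Both groups were untreated and 6 weeks old, and each gave 3 RNA-seq libraries from brain cells captured with CD11b beads, a marker that microglia share with other myeloid cells. The study counts its microglial RNA-seq replicates as mice, in the same number as the libraries, but the labels name no animal for any library. If animals were pooled or shared, p-values would measure only the spread between these libraries.

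Cells detect viral or misplaced self nucleic acid in the cytosol with a small number of receptors. RIG-I (encoded by Ddx58) and MDA5 (Ifih1) bind double-stranded RNA and signal through MAVS on mitochondria, and LGP2 (Dhx58) binds RNA but lacks the signalling domains of the other two. Cytosolic DNA is read by cGAS, whose cyclic dinucleotide product activates STING (Tmem173). Both routes reach the kinase TBK1 and the factors IRF3 and IRF7, which switch on type I interferon. ZBP1 binds Z-form nucleic acid and can start RIPK3-dependent cell death, and PKR (Eif2ak2) binds double-stranded RNA and stops translation by phosphorylating eIF2 alpha. TREX1 degrades cytosolic DNA, SAMHD1 removes deoxynucleotides, and ADAR1 (Adar) edits adenosines in double-stranded RNA, so that all of them limit the sensors. Loss of TREX1, SAMHD1 or ADAR1, and overactive MDA5, cause the interferon-driven brain disease Aicardi-Goutières syndrome in humans, and many of these genes are themselves induced by interferon.

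Total counts per library ranged from 45481609 to 49846634, and mitochondrial genes took 3.06% to 3.49% of them in MRL/lpr and 5.84% to 6.38% in MRL/mpj, without overlap. Microglial markers were abundant, with 22500 to 25160 summed CPM (counts per 1000000, with library sizes scaled by TMM) over 10 genes in MRL/lpr and 26720 to 27330 in MRL/mpj. Markers of other cells also differed between the strains. T cell markers summed to 11.1 to 17.1 CPM in MRL/lpr and 2.5 to 2.92 in MRL/mpj, with 5 of 6 called higher, and NK cell markers to 7.56 to 8.47 and 2.54 to 3.56, with 2 of 5 called higher and Klra8 at 0 in all libraries. Plasma cell markers reached 25.6 to 28.5 CPM against 12.8 to 13.6, with 2 of 5 called higher, and neutrophil markers 563 to 642 against 436 to 497.5, with 3 of 6 called higher. Endothelial markers summed to 1535 to 1674 CPM in MRL/lpr and 1372 to 1425 in MRL/mpj, with 1 of 5 called higher. Choroid plexus markers were at 347 to 359 CPM in MRL/lpr and 1040 to 1124 in MRL/mpj, and all 5 were called lower. Neuron markers were at 21.8 to 28.3 CPM against 37.05 to 42.5, with 2 of 6 called lower. Monocyte markers were at 65.2 to 74.6 CPM against 77.5 to 83.7, with 2 of 5 called higher and 1 lower. Counts of Fas ran from 282 to 461 in MRL/lpr and from 362 to 432 in MRL/mpj, so its total count did not check the strain labels. The MRL/lpr libraries held 8886 to 11319 counts of Xist, the RNA of the inactive X chromosome, together with 8408 to 11783 counts over 4 Y-linked genes, whereas the MRL/mpj libraries held 27 to 38 and 13155 to 15046. The labels give no sex, whereas the methods of the study describe female mice of both strains, and the Y-linked counts of all 6 libraries and the low Xist counts of the MRL/mpj libraries go against that description. Each MRL/lpr library thus held RNA of both an inactive X and a Y chromosome, so it may hold material of more than 1 animal. This was not tested, and the 3 libraries of a strain need not stand for 3 mice. Strain, sex and makeup of the cell fraction cannot be told apart in this design. In bulk libraries of this kind, more cells of a type and more RNA per cell cannot be told apart either.

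Of the 10 members, 6 were higher in MRL/lpr, none was lower and 4 did not pass the test, at a p under 0.05 after Benjamini-Hochberg adjustment over all genes tested in edgeR's quasi-likelihood test. Among all 19554 genes, 11.1% were called higher and 9.06% lower by the same rule, 20.2% in either direction. Zbp1, Dhx58, Ddx58, Adar, Eif2ak2 and Ifih1 were the members that rose. The adaptors Mavs and Tmem173 and the limiters Trex1 and Samhd1 were not called. With the additional requirement of a log2 fold change of at least 1, which is the rule of the study, 4 members were higher (Zbp1, Dhx58, Ddx58 and Adar), against 4.67% of all genes. The median log2 fold change was 0.79 over the members, with a range from -0.16 to 4.10, and -0.01 over all genes tested. Every MRL/lpr library lay above every MRL/mpj library for 7 members, and below for 1 member, Mavs. These patterns were seen for 19.6% and 19.4% of all genes, and groups without overlap in either direction for 39.0%. The groups overlapped for Tmem173 and Trex1.

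**Figure D1:**
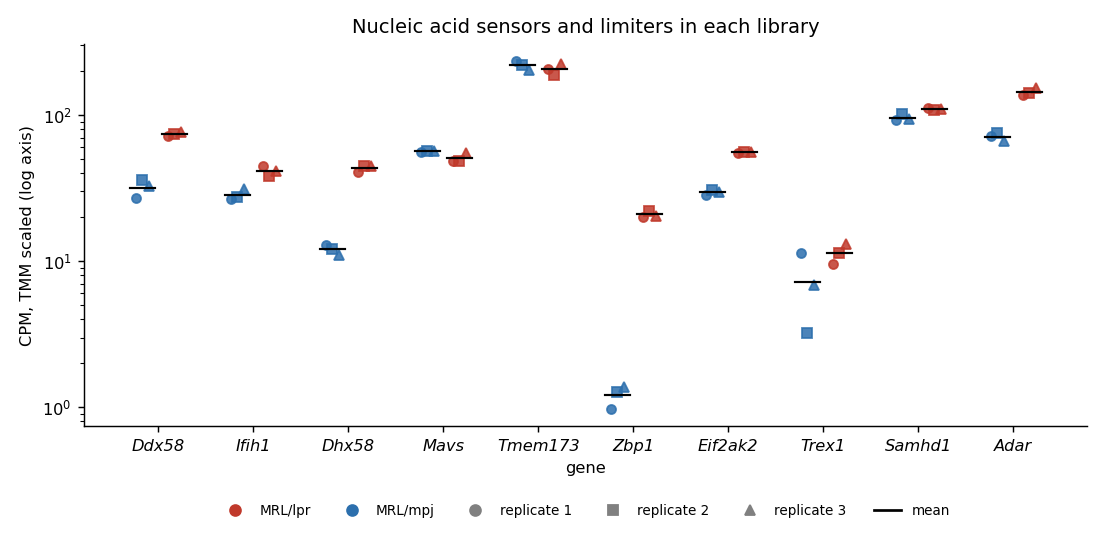
Level of each of the 10 members in every library, as CPM on a logarithmic axis, with the marker shape giving the replicate and a short line the mean of each strain (n = 3). Zbp1 has the widest gap, with MRL/lpr libraries at 20.1 to 21.9 and MRL/mpj libraries at 0.973 to 1.38 CPM, whereas the strains overlap for Tmem173 and Trex1.

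The short sequences that follow are shown because 3 RNA-binding members hold, close to their transcription start, letters that also occur in the interferon-stimulated response element. Interferon-activated factors bind DNA through this element, which contains repeats of GAAA. The letters GAAA, any 2 bases, GAAA were searched on both strands in RefSeq windows on GRCm38.p6 that run from 250 bases before to 50 bases after each start. Windows of 7 members were read, and those of Ddx58, Ifih1 and Eif2ak2 held the motif. Dhx58, Zbp1 and Tmem173 were not searched, so the count leaves out the pair of members with the largest increases. Among all genes with a window, 1074 of 26994 (3.98%) held it, and among all windows 1126 of 32817 (3.43%). A site of 30 bases is printed for each, on the strand of the gene from 5′ to 3′, with the motif in capitals. In Ddx58 the motif lies on the opposite strand and therefore reads as its reverse complement.
Ddx58: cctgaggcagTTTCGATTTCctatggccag
Ifih1: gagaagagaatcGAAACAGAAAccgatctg
Eif2ak2: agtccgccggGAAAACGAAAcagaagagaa
The Ddx58 site lies at chr4:40239804-40239833 on the minus strand and spans the annotated start of the gene, with 25 of its 30 bases in exon and none coding. The Ifih1 site at chr2:62646206-62646235 and the Eif2ak2 site at chr17:78882535-78882564, both on the minus strand, lie wholly in non-coding exon, that is in the 5′ UTR. The motif begins 3, 33 and 19 bases after the start in Ddx58, Ifih1 and Eif2ak2. The windows of Mavs, Trex1, Samhd1 and Adar held no match to these letters. The shorter string GAAA, any 2 bases, GAA, chosen after the windows had been read and contained in every longer match, was held by 2632 of 26994 genes (9.75%) and by 4 of the 7 members, the addition being Adar at the third of its annotated starts.
Adar: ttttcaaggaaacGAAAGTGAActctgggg
The Adar site lies at chr3:89730738-89730767 on the plus strand, inside the gene, with 20 of its 30 bases in exon and none coding, and the motif begins 34 bases after that start. A match describes the letters of the window and does not show that a factor binds there. Whether these letters have a part in the differences between the strains was not tested.

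All 3 RIG-I-like receptors were higher in the MRL/lpr libraries, by unequal amounts. Dhx58 (LGP2, ENSMUSG00000017830, chr11:100694884-100704271, minus strand, GRCm38) was at 40.7, 44.7 and 44.4 CPM in MRL/lpr replicates 1 to 3 and at 12.9, 12.1 and 11.0 in MRL/mpj. The lowest MRL/lpr library was therefore well above the highest MRL/mpj library. Its means of 43.3 ± 2.24 and 12 ± 0.967 CPM (SD, n = 3 each) gave a log2 fold change of 1.85 ± 0.10 (SE), or 3.60-fold, with an adjusted p of 3.21e-06 in edgeR's quasi-likelihood test. The values rest on 1856 to 2104 counts in MRL/lpr and 572 to 664 in MRL/mpj. An antisense gene, Dhx58os, shares 141 exon bases (4.31%) with Dhx58 and held only 25 to 71 counts per library.

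Ddx58 (RIG-I, ENSMUSG00000040296, chr4:40203773-40239828, minus strand) was at 71.3, 73.5 and 76.1 CPM in MRL/lpr and at 26.8, 36.1 and 32.6 in MRL/mpj, on 1377 to 3460 counts. The groups were well apart, and the spread was larger among the MRL/mpj libraries. The log2 fold change was 1.21 ± 0.11, or 2.31-fold, with an adjusted p of 7.32e-05 in edgeR's quasi-likelihood test. Ifih1 (MDA5, ENSMUSG00000026896, chr2:62595798-62646255, minus strand) was at 44.4, 38.1 and 41.1 CPM in MRL/lpr and at 26.4, 27.5 and 31.4 in MRL/mpj. It did not overlap between the strains, but it changed least of the called members. Its log2 fold change was 0.54 ± 0.10, or 1.45-fold, with an adjusted p of 0.00511 in edgeR's quasi-likelihood test. With limma on the deposited FPKM it missed the threshold (adjusted p of 0.0557 with a pseudocount of 1 and 0.0531 with 0.1). The medians of all genes in those limma fits were -0.069 and -0.114.

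Because FPKM values are divided by gene length, they allow the receptors to be set against each other within a library. FPKM of Dhx58 was 1.23 to 1.31 times that of Ddx58 in MRL/lpr and 0.719 to 1.04 times in MRL/mpj. Ifih1 stood at 0.447 to 0.539 of Ddx58 in MRL/lpr and at 0.658 to 0.852 in MRL/mpj, so that, relative to RIG-I, RNA of LGP2 stood higher and RNA of MDA5 lower in every MRL/lpr library. For Zbp1 the ratio to Ddx58 was 0.538 to 0.595 in MRL/lpr and 0.071 to 0.0837 in MRL/mpj. The ranges of the strains did not overlap for any of these pairs. Among single genes, 39.0% had groups without overlap, and the share over all pairs of genes was not computed. The ratios come from the same genes and libraries as the fold changes, so they give no separate support. The two-sided exact permutation p was 0.1 for each of 5 ratios compared, also after Benjamini-Hochberg adjustment, which is the smallest that 3 libraries against 3 can give.

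**Figure D2:**
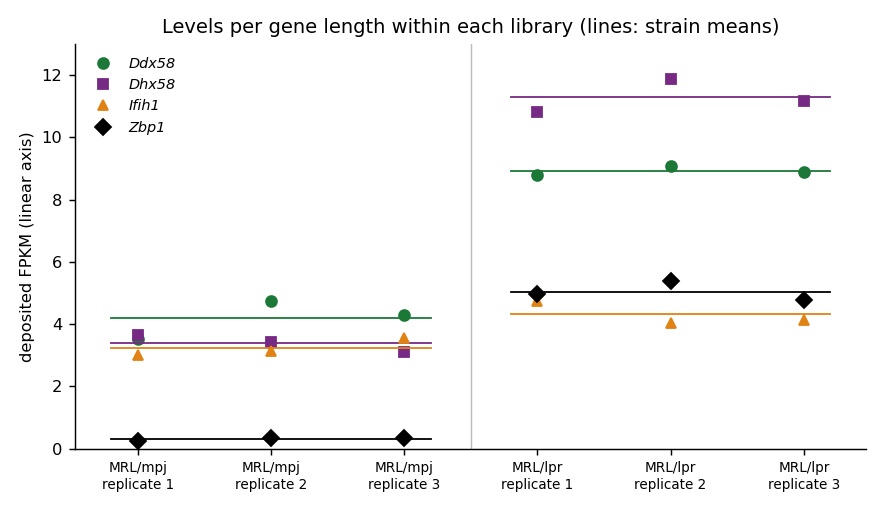
Deposited FPKM (linear axis) of Ddx58, Dhx58, Ifih1 and Zbp1 in each of the 6 libraries, with points for libraries and a line for the mean of each strain (n = 3). Dhx58 stands at 3.11 to 3.66 in MRL/mpj and 10.8 to 11.9 in MRL/lpr, and Zbp1 rises from 0.25 to 0.36 to between 4.78 and 5.40, passing Ifih1 in every MRL/lpr library.

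The adaptors through which these receptors and cGAS signal were not called. Mavs (ENSMUSG00000037523, chr2:131234063-131248025, plus strand) was at 48.3, 48.5 and 54.7 CPM in MRL/lpr and at 55.6, 56.8 and 56.9 in MRL/mpj. All MRL/lpr libraries were lower, though replicate 3 came within 1 CPM of the lowest control. The log2 fold change was -0.16 ± 0.08, with a 95% interval from -0.35 to 0.02 and an adjusted p of 0.221 in edgeR's quasi-likelihood test. Without MRL/lpr replicate 3, the value was -0.22 with an adjusted p of 0.0497. CT010467.1 took 6.38% of the counts of that library, and with this gene and the mitochondrial genes kept out of the fit, an alternative chosen after seeing the data, Mavs was at -0.16 with an adjusted p of 0.224. Mavs also passed as lower when counts were scaled by library size only (-0.29, adjusted p of 0.0284), a scaling that moved the median of all genes to -0.13. It passed too in limma on FPKM (-0.27 with an adjusted p of 0.0220 at a pseudocount of 1, and -0.28 with 0.0238 at 0.1). No TMM scaling was applied in these limma fits, and their medians of all genes were also shifted, to -0.069 and -0.114.

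Tmem173 (STING, ENSMUSG00000024349, chromosome 18, minus strand) was the most abundant member, with 206, 188 and 223 CPM in MRL/lpr and 232, 218 and 204 in MRL/mpj on 8855 to 11939 counts. The groups overlapped. Its log2 fold change was -0.08 ± 0.08, with a 95% interval from -0.27 to 0.10 and an adjusted p of 0.537 in edgeR's quasi-likelihood test. Cgas, which makes the ligand of STING, was at 34.0, 39.9 and 42.8 CPM in MRL/lpr and at 20.5, 32.6 and 36.4 in MRL/mpj, and was not called (log2 fold change 0.38, adjusted p of 0.253).

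Zbp1 (ENSMUSG00000027514, chr2:173206612-173218923, minus strand) differed most among the members. It was at 20.1, 21.9 and 20.5 CPM in MRL/lpr, from 947, 1032 and 856 counts, and at 0.973, 1.28 and 1.38 CPM in MRL/mpj, from 50, 64 and 72 counts. Replicates of each strain lay close together, and the gap between strains was many times their spread. The means were 20.9 ± 0.946 and 1.21 ± 0.214 CPM (SD, n = 3), the log2 fold change was 4.10 ± 0.17 and the ratio 17.2-fold, with a 95% interval from 13.1- to 22.5-fold and an adjusted p of 8.41e-07 in edgeR's quasi-likelihood test. By FPKM, Zbp1 stood between the 43.9 and 47.8 percentiles of the 30602 genes with a count in MRL/mpj libraries, and between 78.1 and 79.2 in MRL/lpr libraries.

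Of 5 partners of ZBP1 in cell death, 2 were called higher and none lower, against 11.1% and 9.06% of all genes. Mlkl, the effector of necroptosis, was at 3.21, 3.57 and 4.16 CPM in MRL/lpr and at 1.42, 2.32 and 1.71 in MRL/mpj (log2 fold change 1.004 ± 0.27, adjusted p of 0.0285 in edgeR's quasi-likelihood test). Ripk3, the kinase that activates it, was at 14.1, 14.1 and 13.6 CPM in MRL/lpr and at 10.2, 9.76 and 9.59 in MRL/mpj (0.50 ± 0.12, adjusted p of 0.0157). Both calls were lost when certain single libraries were left out. The adjusted p of Mlkl was 0.0673, 0.0742, 0.0983 and 0.0915 without MRL/lpr replicate 2, MRL/lpr replicate 3, MRL/mpj replicate 1 and MRL/mpj replicate 3. That of Ripk3 was 0.0516, 0.0589 and 0.0593 without MRL/lpr replicate 2, MRL/mpj replicate 2 and MRL/mpj replicate 3, and 0.0574 with scaling by library size only. Ripk1, Casp8 and Fadd, which decide between apoptosis and necroptosis, were not called (log2 fold changes 0.09, -0.20 and 0.21).

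Eif2ak2 (PKR, ENSMUSG00000024079, chr17:78852564-78882573, minus strand) was at 54.8, 55.8 and 55.6 CPM in MRL/lpr and at 28.3, 30.6 and 29.6 in MRL/mpj. These are the tightest replicates among the members that rose, with means of 55.4 ± 0.507 and 29.5 ± 1.17 CPM. The log2 fold change was 0.91 ± 0.08, or 1.88-fold, with an adjusted p of 4.78e-05 in edgeR's quasi-likelihood test. Eif2ak2 was thus just outside the fold rule of the study, and Adar just inside it. On the opposite strand, Gm26637 shares 174 exon bases (3.40%) with Eif2ak2, and the rRNA gene n-R5s29 shares 47 (0.919%). Counts of n-R5s29 were 0 to 7 per library, and Gm26637 was not among the genes with deposited counts. The other kinases of eIF2 alpha, which respond to heme shortage (Eif2ak1), unfolded protein (Eif2ak3) and amino acid shortage (Eif2ak4), were not called, with log2 fold changes of -0.10, 0.22 and -0.06. None of the 5 genes of this group passed the test, against 20.2% of all genes called in either direction. Among the 5 were the substrate gene Eif2s1 (-0.11) and the PKR inhibitor Dnajc3 (-0.07). Without MRL/lpr replicate 3, Eif2ak3 was called higher (0.30, adjusted p of 0.0210). FPKM of Eif2ak2 was 0.834 to 1.02 times that of Eif2ak3 in MRL/lpr and 0.540 to 0.595 times in MRL/mpj, with the exact permutation p given for the ratios above.

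Among the 3 limiters, Adar rose, whereas Samhd1 and Trex1 were not called. Adar (ADAR1, ENSMUSG00000027951, chr3:89715022-89753446, plus strand) was at 137.5, 140.4 and 152 CPM in MRL/lpr and at 71.2, 74.7 and 66.2 in MRL/mpj, on 3444 to 6610 counts. No library of either strain came near the other strain. The log2 fold change was 1.02 ± 0.08, or 2.03-fold, with an adjusted p of 2.07e-05 in edgeR's quasi-likelihood test. It fell below 1 with scaling by library size only (0.90), in limma on FPKM (0.83 and 0.89 at pseudocounts of 1 and 0.1) and when either MRL/lpr replicate 3 (0.98) or MRL/mpj replicate 3 (0.97) was left out. Chrnb2 on the opposite strand shares 1365 exon bases (16.8%) with Adar, and it held 166 to 293 counts per library and was not called (0.44, adjusted p of 0.233).

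The related editing enzyme gene Adarb1 (ADAR2) moved the other way. It was at 18.2, 15.1 and 17.6 CPM in MRL/lpr and at 33.2, 29.5 and 32.6 in MRL/mpj, without overlap (log2 fold change -0.90 ± 0.11, adjusted p of 3.51e-04 in edgeR's quasi-likelihood test). FPKM of Adar was 10.5 to 12.98 times that of Adarb1 in MRL/lpr and 2.83 to 3.52 times in MRL/mpj. Neuron and choroid plexus markers were also lower in MRL/lpr, and their part in the Adarb1 values was not tested.

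Samhd1 (ENSMUSG00000027639, chr2:157097533-157135265, minus strand) was at 112, 107 and 110.4 CPM in MRL/lpr and at 92.5, 101 and 93.6 in MRL/mpj. Each MRL/lpr library was above each MRL/mpj library by a small margin. The log2 fold change was 0.20 ± 0.07, with a 95% interval from 0.04 to 0.36 and a p of 0.0188 before and 0.0787 after Benjamini-Hochberg adjustment in edgeR's quasi-likelihood test. No alternative brought the adjusted p under 0.05, and the lowest was 0.0507.

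Trex1 (ENSMUSG00000049734, chr9:109057933-109059734, minus strand) was at 9.55, 11.4 and 13.1 CPM in MRL/lpr and at 11.4, 3.20 and 6.90 in MRL/mpj. The MRL/mpj libraries alone spanned more than the distance between the strain means of 11.4 ± 1.79 and 7.15 ± 4.09 CPM (SD, n = 3), and the strains overlapped. The log2 fold change was 0.66 ± 0.42, with a 95% interval from -0.33 to 1.66 and an adjusted p of 0.343 in edgeR's quasi-likelihood test. It was 1.17 (adjusted p of 0.0520) without MRL/mpj replicate 1 and 0.31 (adjusted p of 0.490) without MRL/mpj replicate 2.

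All 1147 exon bases of Trex1 (100%) also lie in exons of Atrip, a gene on the same strand whose product recruits the DNA damage kinase ATR. Reads from this stretch cannot be assigned to either gene by position, and the values of both are uncertain. Trex1 took 29.6%, 32.0% and 35.9% of the summed counts of both genes in MRL/lpr, but 46.2%, 8.60% and 28.1% in MRL/mpj. The library with the lowest Trex1 count, MRL/mpj replicate 2 with 160, had the highest Atrip count, 1701, and the library with the highest Trex1 count, MRL/mpj replicate 1 with 584, had the lowest Atrip count, 679. Summed over both genes, the counts were 1519, 1671 and 1528 in MRL/lpr and 1263, 1861 and 1277 in MRL/mpj. The summed log2 fold change was 0.27 ± 0.16, with an adjusted p of 0.292 in edgeR's quasi-likelihood test, a comparison added after the overlap was seen.

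**Figure D3:**
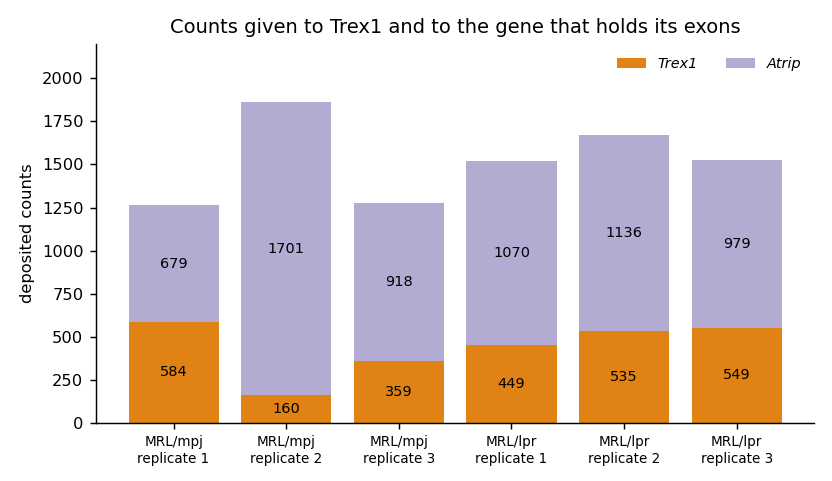
Deposited counts of Trex1 and Atrip in each of the 6 libraries, stacked so that the full height is the sum of both genes. The share of Trex1 ranges from 8.60% to 46.2% among the MRL/mpj libraries while the sum ranges from 1263 to 1861.

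Of 43 further genes, 7 were higher, 2 were lower and 34 did not pass the test, against 11.1% and 9.06% of all genes, with a median log2 fold change of 0.09. The largest increase was that of Irf7, the interferon-inducible factor that amplifies interferon production, at 50.5, 51.2 and 45.9 CPM in MRL/lpr and 5.99, 6.98 and 7.28 in MRL/mpj (2.86 ± 0.11, adjusted p of 4.66e-07 in edgeR's quasi-likelihood test). Among the 9 shared kinases, adaptors and factors, Traf6, a ubiquitin ligase, was also higher (0.58 ± 0.09, adjusted p of 0.0012), whereas Tbk1 (0.04), Ikbke (0.60, adjusted p of 0.212) and Irf3 (-0.21, adjusted p of 0.166) were not called. Irf3 passed as lower with scaling by library size only (-0.34, adjusted p of 0.0331) and in limma on FPKM (-0.30 and -0.33, with adjusted p of 0.0455 and 0.0459). In all of these fits the median of all genes was shifted downwards, as given for Mavs.

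Of 10 partners of the RNA sensors, 2 were higher and none lower, against 11.1% and 9.06% of all genes. Ddx60, a helicase that promotes RIG-I-like receptor signalling, was at 38.8, 43.0 and 31.8 CPM in MRL/lpr and at 13.8, 15.6 and 13.5 in MRL/mpj (1.41 ± 0.13, adjusted p of 6.74e-05). Zc3hav1, which encodes the antiviral zinc-finger protein ZAP, was at 99.8, 98.7 and 112 CPM and at 52.4, 62.2 and 64.8 (0.79 ± 0.10, adjusted p of 4.45e-04). Trim25, the ubiquitin ligase linked to RIG-I activation, was at 72.9, 75.6 and 70.5 CPM in MRL/lpr and at 25.5, 21.5 and 63.2 in MRL/mpj. MRL/mpj replicate 3 stood far from the other two, and Trim25 was not called with it (0.99 ± 0.45, adjusted p of 0.220) but was without it (1.63, adjusted p of 9.25e-05).

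Of the 6 partners of DNA sensing, 1 was higher and none lower, against 11.1% and 9.06% of all genes. It was Lrrfip1, which encodes a nucleic acid binding protein, at 190.3, 195 and 168 CPM in MRL/lpr and 93.7, 96.5 and 93.0 in MRL/mpj (0.97 ± 0.08, adjusted p of 2.36e-05). Of 8 other limiters, none was higher and 2 were lower, Adarb1 and Dnase2a, against the same shares of all genes. Dnase2a, the lysosomal DNase, was at 55.7, 55.8 and 64.9 CPM in MRL/lpr and at 74.1, 77.1 and 76.2 in MRL/mpj (-0.37 ± 0.08, adjusted p of 0.0138 in edgeR's quasi-likelihood test). Its call was lost without MRL/lpr replicate 1 (0.0555), MRL/lpr replicate 2 (0.0545), MRL/mpj replicate 2 (0.0575) or MRL/mpj replicate 3 (0.0509), values that are adjusted p.

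**Figure D4:**
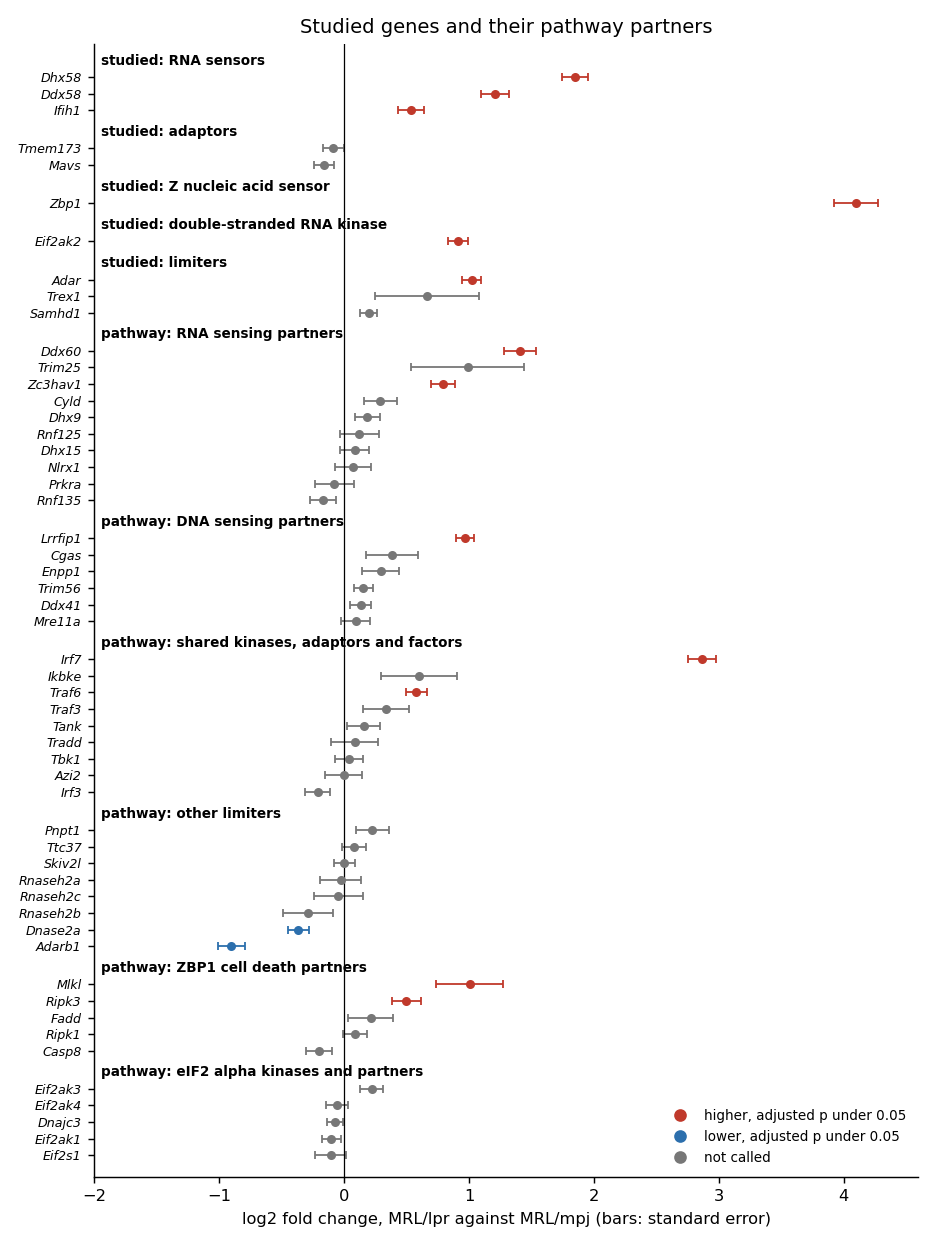
Log2 fold change of MRL/lpr over MRL/mpj with its standard error for the 10 members and 43 further genes of the pathways, arranged by role, from edgeR on all 6 libraries. Called genes are coloured by direction and genes that did not pass are grey, and Zbp1 at 4.10 and Irf7 at 2.86 lie farthest to the right while Adarb1 at -0.90 lies farthest to the left.

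For comparison, 20 interferon-stimulated genes outside the 10 members were counted in the same fit. Of these, 19 were higher and none lower, against 11.1% and 9.06% of all genes. By at least 1 on the log2 scale, 16 were higher, against 4.67% of all genes. The list was chosen with earlier results of these data known, so its counts give no independent support. The median log2 fold change was 1.36, with a range from 0.05 for Cxcl10 (adjusted p of 0.811) to 5.20 for Ifi44 (adjusted p of 2.93e-06 in edgeR's quasi-likelihood test). Irf7 belongs to both this list and that of the pathways. T cell, NK cell, plasma cell, neutrophil and endothelial markers, as sums, moved in the same direction as the members that rose. Their part in these values was not tested. The share of mitochondrial counts, which was lower in each MRL/lpr library, moved with the same contrast. With the mitochondrial genes and CT010467.1 kept out of the fit, 6 members were higher and none lower.

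Ordered by FPKM, Tmem173 was first in all 6 libraries, at 59.8 to 67.1 in MRL/lpr and 69.4 to 78.8 in MRL/mpj, which placed it between the 98.2 and 98.6 percentiles of genes with a count. In MRL/mpj it was followed in every library by Mavs (15.4 to 15.8) and Samhd1 (9.40 to 10.3), and Zbp1 was last. In MRL/lpr it was followed by Adar (14.8 to 15.5), Mavs (12.6 to 13.5), Dhx58 (10.8 to 11.9) and Samhd1 (9.93 to 10.7), and Ifih1 (4.05 to 4.74) was last. Dhx58 and Samhd1 were ordered alike in every MRL/lpr library, although the highest Samhd1 value was close to the lowest of Dhx58. Eif2ak2 (8.95 to 9.50), Ddx58 (8.80 to 9.07) and Trex1 (7.24 to 9.42) lay within each other's spread in MRL/lpr. Dhx58 rose from between the 71.2 and 73.4 percentiles in MRL/mpj to between 88.0 and 89.0 in MRL/lpr.

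The members also varied between replicates of one strain. After the mean of each strain was taken away, the 45 pairs of members had a median Pearson correlation of 0.14 over the 6 libraries, and 28 were above 0. Ddx58 and Eif2ak2 were most alike (0.98), followed by Ddx58 and Zbp1 (0.82) and Zbp1 and Eif2ak2 (0.80). Ifih1 and Dhx58 were the least alike (-0.94), and Trex1 ran against Samhd1 (-0.89) and Eif2ak2 (-0.88). With 6 libraries that share the removal of 2 means, these values describe the libraries only.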

How the data were processed

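RNA-seq was performed on CD11b-selected brain cells of 6-week-old MRL/lpr and MRL/mpj mice, 3 libraries each. Per the labels, rRNA was removed before stranded libraries were made, whereas the methods of the study describe mRNA purification. The submitters' processing notes name cutadapt 1.9.3, HISAT2 2.0.4, Cuffdiff 2.2.1, Cufflinks and GRCm38. The counting tool, its annotation and its use of strand are not given in the sources used here. The authors deposited counts per gene as whole numbers, not normalized, and FPKM values per gene, that is counts divided by gene length and library depth. Genes with exactly 4 counts (1138 to 1288 per library) outnumbered those with 3 (320 to 415), so counts divided by 4 were an alternative.

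Symbols, positions and exon overlaps were taken from GENCODE M21 on GRCm38, where 55141 of 55401 identifiers were found. Counts were filtered with filterByExpr (minimum count 10, minimum total 15), scaled by TMM and tested in edgeR 4.0.16 (R 4.3.3) with the robust quasi-likelihood test, strain as the only term and Benjamini-Hochberg adjustment over 19554 genes. This test was also run on simulated data, with a spread between replicates set below the common one of these data except at low counts. That check therefore does not cover a spread as wide as the one found here. CPM values use TMM scaling, errors of log2 fold changes are standard errors and 95% intervals come from the same fit. The study used DESeq2, which was an alternative (1.42.0), as were limma 3.58.1 on log2(FPKM + 1) and log2(FPKM + 0.1), other scalings and filters, and leaving out each library. The common biological coefficient of variation was 0.26. Replicate numbers did not pair the libraries (correlations of deviations from the strain means between -0.041 and -0.020 for equal numbers).

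The members and lists were chosen with earlier results of these data known. Named were all members, genes that overlap them, the 3 pathway genes with the largest increase and the 3 with the largest decrease among those called (only 2 were lower), others of that list as examples, and the ends of the interferon list.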

Additional observations from a re-analysis of the deposited data

How the results depend on the processing

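The 6 members called higher were so without any single library and in every alternative but 3. Against a log2 fold change of 1 (glmTreat), only Dhx58 and Zbp1 passed, which left 2 members higher, 2 with a log2 fold change of at least 1, 2 pathway genes higher and 0 lower, with 379 genes higher and 237 lower in all. In limma on log2(FPKM + 1) and on log2(FPKM + 0.1), Ifih1 missed the threshold, Mavs made 1 member lower and 4 pathway genes were lower, and 2 members reached a log2 fold change of 1 with the larger pseudocount. With scaling by library size only, 1 member was lower, and 1634 genes were higher and 2790 lower in all, against 2178 and 1772 with TMM, as the median log2 fold change of all genes moved from -0.009 to -0.133. Leaving out each library gave 1626 to 2363 genes higher and 1177 to 1971 lower, 6 members higher, 0 to 1 lower, 3 to 4 with a log2 fold change of at least 1, 5 to 10 pathway genes higher and 1 to 2 lower. No direction of a member reversed in any alternative.

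Replicate numbers are shared between the strains but did not pair the libraries. With the replicate number as a block, 1754 genes were higher and 1309 lower, 6 members were higher, and 2 pathway genes, Ripk3 (adjusted p of 0.0533) and Mlkl (0.0507), lost their call. Zbp1 had the widest range of values, from 2.2 in limma on log2(FPKM + 1), a scale that understates changes of low genes, to 4.21. Depth limits Zbp1 in MRL/mpj, at 50 to 72 counts.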
